A study of Mus musculus with 9 samples.

Results

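The comparison described here set laser-cut lumbar motor neurons of spinal muscular atrophy (SMA) mice that had received a cell transplant against those of SMA mice that had received vehicle. Its members were the 3 arrays labelled transplanted SMA and the 3 labelled SMA, chosen by title, which is 6 of the 9 arrays of the study. Surgery took place on postnatal day 1 in all animals, which were killed at 13 days. The SMA group carried the SMA genotype and received vehicle, and the transplanted group carried the same genotype and received cells that the labels abbreviate as NSC, taken here to be neural stem cells from knowledge of the study. The alleles that make up the SMA genotype, the sex of the animals and the site of injection are not given in the labels. The remaining 3 arrays came from wild type mice that underwent surgery with vehicle, and their values are given beside the others. The labels state that the neurons on an array came from 1 animal, cut from 16 µm sections of cord perfused with fixative, at about 100 cells per cap, and that the RNA was amplified in a double procedure for small samples. The replicates are taken here to be separate animals, which 1 animal per array does not by itself establish, with n = 3 in each group throughout.

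SMA is caused by too little of the survival motor neuron protein SMN, whose complex builds the core of spliceosomal RNA-protein particles, and lower motor neurons are the cells most visibly lost. Motor neurons touch astrocytes, myelinating oligodendrocytes and microglia, the resident phagocytes of the cord, so laser-cut profiles can carry RNA of these cells as well. Neural stem cells can divide and give rise to neurons and glia, and the comparison addresses what their transplantation changed within the disease genotype.

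Values are the deposited MAS5 signals, a linear brightness per probe set in arbitrary units, listed in the order of sample numbers 1, 2 and 3 of a group. Differences are transplanted SMA minus SMA on the log2(signal + 16) scale, which understates the change of dim genes, with the standard error (SE) from limma. Adjusted p-values are Benjamini-Hochberg values from limma over the 11313 probe sets in the brighter 50%, and the threshold was 0.05. Total signal per array ran from 3226815 to 3453157.

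Several features of single arrays bear on what follows. The defining motor neuron genes of the transmitter pathway were dim in all groups. Slc18a3, the vesicular acetylcholine transporter, read 18, 8.7 and 2.1 on the SMA arrays and 4.8, 41.7 and 4.8 on the transplanted ones. Slc5a7, the choline transporter, read between 3 and 11.8 on all 9 arrays, and Isl1 between 3.8 and 16.7. These probe sets lay in the dimmer part of the array and were not tested, so the values give only a limited check of the labelled cell type. Among tested neuronal genes, Isl2 read 34.7 to 58 and Ache 24.5 to 29.5 on the SMA arrays. The brightest probe set of the myelin gene Mbp read 7831.6 to 12111.9 on the SMA arrays. It read 9980.1 to 13348.6 on the transplanted arrays and 9531.1 to 11109.7 on the wild type arrays. The brightest probe set naming Smn1 read 5.1 or less on every array and gave no check of the genotype. Summed signal of 37 skeletal muscle genes was 4117 on SMA 1 and 4799 on SMA 2 against 727 on SMA 3 and 720 to 829 on the transplanted arrays. Summed signal of 33 meningeal and fibroblast genes was 19203 on transplanted 1 against 7769 and 7986 on transplanted 2 and 3. Xist, expressed from the inactive X chromosome, read 600.7, 879.5 and 47.6 on the SMA arrays and 733, 739.6 and 366.1 on the transplanted ones, and the Y-linked Eif2s3y read 108.9 on SMA 3, 84.8 on transplanted 3 and 0.5 or less on the other 4 arrays. Transplanted 3 thus carried transcripts of both kinds, although the labels give 1 animal per array, and the reason was not tested. The wild type arrays read 32.9, 23.5 and 31.7 for Xist and 49, 54.7 and 75.1 for Eif2s3y. In these transcripts they differed from SMA 1 and 2 and from transplanted 1 and 2. Genotype and sex therefore cannot be fully told apart where values are set beside wild type.

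No probe set passed the test between transplanted SMA and SMA. The percentage called at an adjusted p under 0.05 was 0 (0 of 11313), and the smallest adjusted p was 0.933 (limma, Benjamini-Hochberg). Without adjustment, 540 probe sets had a p under 0.05, of which 262 were higher and 278 lower after transplantation. The correlation of log2 signals was 0.904 to 0.948 between arrays of the same group (median 0.936, 6 pairs) and 0.918 to 0.958 between the 2 groups (median 0.934, 9 pairs), so an SMA array was about as similar to a transplanted array as to another SMA array. The median SE of a log2 difference was 0.21. Counted once per gene by its brightest probe set, the 3 transplanted arrays lay above all 3 SMA arrays for 4.52% of the 7254 genes and below them for 4.76%. At an unadjusted p under 0.05, 2.34% of genes were higher and 2.54% lower. These 4 percentages are the background for each count of list members below, and no gene is described as changed. Among all probe sets, 58 differed by more than 1 on the log2 scale, 27 higher and 31 lower, and for 26 of these the groups did not overlap.

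**Figure D1:**
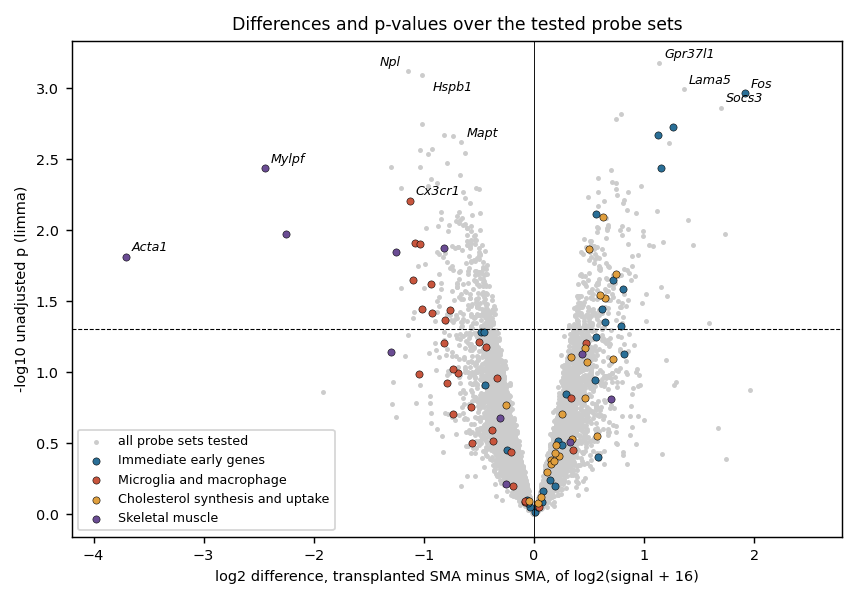
Each point is 1 of the 11313 tested probe sets, with its log2 difference (transplanted SMA minus SMA) on the x axis and the -log10 unadjusted limma p on the y axis; the dashed line marks an unadjusted p of 0.05, and tested members of 4 gene lists are coloured. Fos, Dusp1, Ier2 and Egr1 lie at the upper right, Cx3cr1 and other microglial genes at the left, and the muscle gene Acta1 at a log2 difference of -3.70.

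Immediate early genes are switched on within minutes of a stimulus such as calcium entry, growth factors or tissue injury, and many encode transcription factors of the AP-1 and EGR families. Of 42 genes listed, 40 had a probe set and 30 were bright enough to test. Of these 30, 23 had a positive difference, 8 were above every SMA array on all 3 transplanted arrays and none were below, and 10 were higher at an unadjusted p under 0.05, with none lower. The median difference was 0.27, against 0.00 over all genes tested. The list's mean relative to the SMA mean was 0.83 on transplanted 1, 0.26 on transplanted 2 and 0.07 on transplanted 3, so the 3 animals differed among themselves.

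Fos, the AP-1 subunit most used as a mark of recent activity, read 264.9, 564.9 and 162.1 on the SMA arrays and 2133.9, 978.8 and 716 on the transplanted arrays. The lowest transplanted array lay above the highest SMA array, and the mean signal was 3.86-fold higher, with a log2 difference of 1.92 (SE 0.44). The 3 wild type arrays read 263, 216.3 and 237.6 and thus lay within the range of the SMA arrays. Dusp1, a phosphatase that inactivates MAP kinases, read 172.5, 327 and 139.7 on the SMA arrays and 696.9, 367.9 and 491.9 on the transplanted arrays (log2 difference 1.26, SE 0.31). Egr1, a zinc finger transcription factor, read 284.4, 342.9 and 130.8 against 751.3, 433.5 and 490.2 (1.15, SE 0.31). Ier2, a small nuclear protein of the early response, read 62.9, 75.5 and 34.5 against 202.3, 148.5 and 89.3 (1.12, SE 0.28). For these 3 genes as well the groups did not overlap, and SMA 3 was the lowest of the 6 arrays.

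Smaller differences of the same sign were seen in the AP-1 partners. Junb read 46.7, 55.6 and 46.6 on the SMA arrays and 124, 87.8 and 69.1 on the transplanted arrays (0.71, SE 0.27). Jun read 173.9, 195 and 161.2 against 324.7, 235.4 and 249.1 (0.56, SE 0.17), with wild type arrays at 159.1 to 170.2. The other tested Jun probe set read 129.1, 194.6 and 62.3 against 426.2, 198.6 and 178.5 (0.98, SE 0.40), and there the groups overlapped. Zfp36, which promotes decay of AU-rich messenger RNAs, differed by 0.81 (SE 0.31) and Klf2, a transcription factor prominent in endothelium, by 0.62 (SE 0.26), both without overlap. For Btg2 (0.64) and Nr4a1 (0.79) the unadjusted p was under 0.05 while the groups overlapped. On the other side, Zfp36l1 differed by -0.48 (SE 0.22) and Myc by -0.45 (SE 0.21), and the groups overlapped for both. For Jun, Klf2 and Zfp36 transplanted 1 was again the highest array. The median of the list was 0.17 without transplanted 1, on which the meningeal and fibroblast genes were also high, and the part of those cells in the result was not tested. With the mean of the meningeal list as a covariate the median was 0.15. Fos, Dusp1, Ier2, Egr1, Junb and the brightest Jun probe set were above every SMA array on transplanted 2 and 3 as well. That holds for any gene whose groups do not overlap, so it says nothing about the part of meningeal cells.

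**Figure D2:**
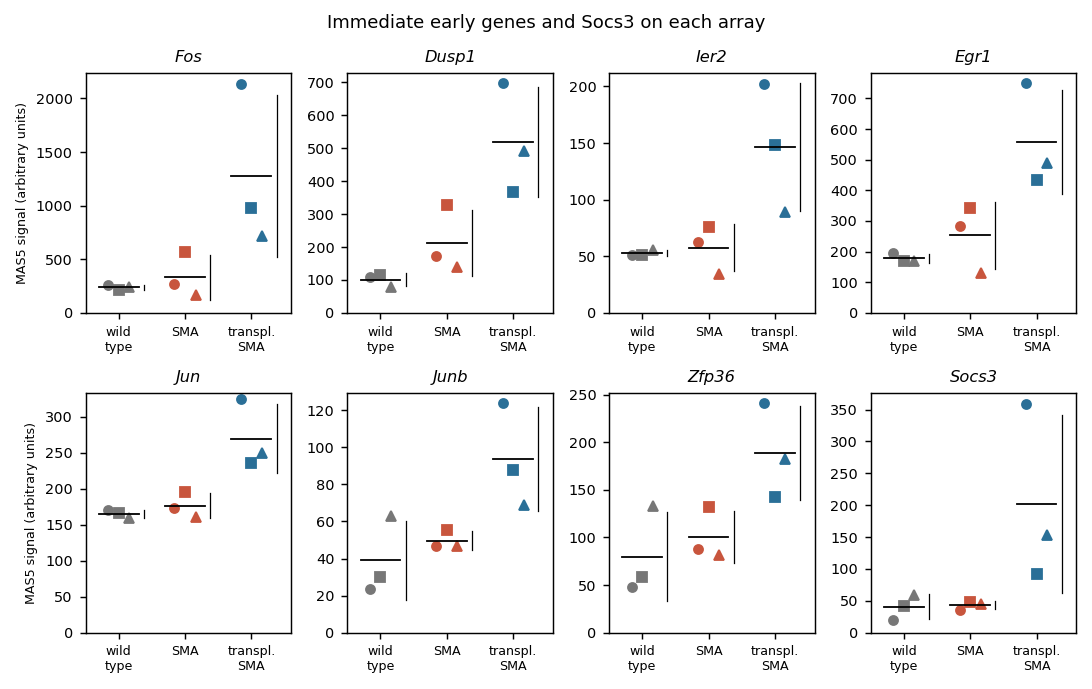
MAS5 signal in arbitrary units (y axis) of 7 immediate early genes and Socs3 on the wild type, SMA and transplanted SMA arrays (x axis); circles, squares and triangles are samples 1, 2 and 3, horizontal lines are group means and the vertical line beside each group spans 1 SD to either side (n = 3). All 3 transplanted arrays lie above all 3 SMA arrays for each of the 8 genes, and transplanted 1 is the highest array for each.

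Socs3, which is induced by cytokine signalling through STAT3 and feeds back to inhibit the receptor-bound kinases, was likewise higher on all 3 transplanted arrays. Its brightest probe set read 35.5, 47.5 and 45.5 on the SMA arrays and 359.1, 92.2 and 152.9 on the transplanted arrays (log2 difference 1.70, SE 0.40), a 4.70-fold higher mean. The other tested probe set of Socs3 read 32.9, 33.4 and 52 against 135.5, 66.9 and 60.4 (0.85, SE 0.27). On both probe sets the groups did not overlap and the wild type arrays overlapped the SMA arrays. Most of the list of cytokine receptors, JAK kinases, STAT factors and SOCS proteins had the opposite sign. Of 19 tested members, Socs3 included, 6 were positive and 13 negative, the median was -0.21, and 5 lay below every SMA array on all 3 transplanted arrays. These 5 were Jak2 (-0.53, SE 0.18), Stat3 (-0.33, SE 0.21), Pias1 (-0.29), Bcl6 (-0.27) and Jak1 (-0.22). Jak2, a kinase that couples cytokine receptors to STAT proteins, read 207.1, 165.2 and 220.9 on the SMA arrays and 152.3, 122.5 and 119.2 on the transplanted arrays, with wild type at 102.5 to 123.4, while its other probe set was positive (0.16).

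The promoters of 4 of these genes are shown because Fos, Dusp1, Junb and Socs3 were high on the same arrays. Each is the 250 bases before the start of the gene, from RefSeq on GRCm38.p6, printed 5′ to 3′ on the gene's strand. Both strands were searched for TGACG, the core of the cAMP response element bound by CREB and ATF factors, and for TTCNNNGAA, the palindrome bound by STAT factors, and matches are in capitals. The Fos promoter is chr12:85473640-85473889 on the plus strand, Dusp1 chr17:26508473-26508722, Junb chr8:84978749-84978998 and Socs3 chr11:117969367-117969616, these 3 on the minus strand.
Fos: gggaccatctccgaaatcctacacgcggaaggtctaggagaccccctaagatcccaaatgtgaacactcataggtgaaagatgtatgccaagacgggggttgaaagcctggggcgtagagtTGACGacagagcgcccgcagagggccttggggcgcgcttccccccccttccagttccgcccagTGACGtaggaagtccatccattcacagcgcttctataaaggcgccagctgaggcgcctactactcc
Dusp1: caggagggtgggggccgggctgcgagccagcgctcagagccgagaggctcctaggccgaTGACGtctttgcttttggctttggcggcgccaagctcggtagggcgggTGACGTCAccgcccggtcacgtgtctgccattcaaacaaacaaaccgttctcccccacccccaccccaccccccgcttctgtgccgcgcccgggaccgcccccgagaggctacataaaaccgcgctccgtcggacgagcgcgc
Junb: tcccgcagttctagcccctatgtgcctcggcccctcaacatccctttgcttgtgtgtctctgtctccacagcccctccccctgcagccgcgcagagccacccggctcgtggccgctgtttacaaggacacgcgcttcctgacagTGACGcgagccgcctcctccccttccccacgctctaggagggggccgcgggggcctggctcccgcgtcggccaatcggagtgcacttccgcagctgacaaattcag
Socs3: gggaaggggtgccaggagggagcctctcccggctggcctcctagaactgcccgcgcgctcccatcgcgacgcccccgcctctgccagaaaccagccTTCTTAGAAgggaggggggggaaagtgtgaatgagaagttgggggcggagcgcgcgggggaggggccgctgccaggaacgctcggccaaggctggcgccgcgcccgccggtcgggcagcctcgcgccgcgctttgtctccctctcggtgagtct
TGACG matched 2 times in Fos, the nearest at 66 to 62 bases before the start, 3 times in Dusp1 and 1 time in Junb. A pair of the Dusp1 matches overlap, 1 on each strand, and together form the full palindrome TGACGTCA. In Socs3, TTCNNNGAA matched 1 time, 154 to 146 bases before the start, and TGACG had no match in this window. Of 32851 RefSeq promoter windows of the same length, 17.8% held TGACG, 1.55% TGACGTCA and 7.02% TTCNNNGAA, so a TGACG match is common. A match describes the letters and does not show that a factor was bound.

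Microglial and macrophage genes differed in the opposite direction. Of 34 genes listed, 32 had a probe set and 30 were tested, and 26 of the 30 were lower after transplantation. Of the 30, 7 lay below every SMA array on all 3 transplanted arrays and none above, 9 were lower at an unadjusted p under 0.05 and none higher, and the median difference was -0.63. Relative to the SMA mean the list stood at -0.76 on transplanted 1, -0.91 on transplanted 2 and 0.06 on transplanted 3, so 1 of the 3 transplanted animals was at the level of the SMA group. The wild type arrays spread as widely, at -0.82, -0.22 and 0.30. Summed signal of the 32 genes was 17967 to 19385 in SMA, 9081 to 18489 in transplanted SMA and 10688 to 22203 in wild type, and no member was at 0 on any array. In RNA from cut tissue, fewer cells of a type and less RNA per cell cannot be told apart.

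Cx3cr1, the microglial receptor for the neuronal chemokine fractalkine, read 1348.3, 1043.5 and 1103.5 on the SMA arrays and 450.5, 387.2 and 807.3 on the transplanted arrays (-1.13, SE 0.33). C1qa, a chain of the complement protein C1q that tags synapses for removal, read 705.9, 601.5 and 410.7 against 182.9, 201 and 435.3 (-1.10, SE 0.41), and the groups overlapped because transplanted 3 lay above SMA 3. Tyrobp, the signalling adaptor of TREM2, read 480.5, 581.9 and 413 against 199.7, 193.2 and 384.5 (-0.94, SE 0.36). In each case transplanted 3 was the highest of its group. The other members without overlap were the Fc receptor Fcgr3 (-1.08, SE 0.36), the tetraspanin Cd53 (-1.04, SE 0.35), C1qc (-0.92, SE 0.39), the lysosomal protease Lgmn (-0.77, SE 0.32) and the lysosomal protein Grn (-0.44, SE 0.21). All 3 probe sets of Laptm5, a lysosomal membrane protein of immune cells, were lower (-1.04, -0.81 and -0.70). Csf1r, the receptor microglia need to survive, read 5772.4, 4222.2 and 5634.6 against 3226.6, 2933.4 and 5066.9 (-0.50, SE 0.24). A chemokine went the other way, with Ccl3 at 73.5, 58.5 and 35.8 on the SMA arrays and 93.2, 62.6 and 91.9 on the transplanted arrays (0.47, SE 0.23). Without transplanted 3 the median of the list was -1.02, without transplanted 1 it was -0.45 and without transplanted 2 it was -0.42.

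Some genes outside the list were as low after transplantation. Npl, a sialic acid lyase, read 281.4, 334.3 and 196.1 on the SMA arrays and 85.9, 122.4 and 130.2 on the transplanted arrays, with wild type at 90.4 to 150.5 (-1.14, SE 0.25). Lpl, lipoprotein lipase, read 228, 466 and 138.5 against 103.7, 90 and 100.5, with wild type at 82.1 to 140 (-1.21, SE 0.35). Npl and Lpl were both highest on SMA 1 and 2, the arrays with high skeletal muscle signal, and the part of muscle RNA was not tested. The cholesterol exporters Abca1 (-0.64, SE 0.20) and Abcg1 (-0.67, SE 0.21), chosen after their values were seen, also lay below every SMA array.

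Genes of cholesterol synthesis and uptake were higher as a group. The pathway turns acetyl-CoA into mevalonate, squalene and then sterols, and SREBP2 raises it when membrane sterol is low. Of 30 genes listed, 24 were tested and 22 were positive. Of the 24, 7 lay above every SMA array and 1 below, 5 were higher at an unadjusted p under 0.05 and none lower, and the median was 0.30. The list mean was 0.21, 0.29 and 0.48 above the SMA mean on transplanted 1, 2 and 3, and wild type arrays were at 0.55, 0.64 and 0.29. By this mean of logs the 3 transplanted arrays lay above the 3 SMA arrays, which were at 0.04, -0.10 and 0.06. By summed signal, which the brightest genes dominate, they overlapped, at 16095, 15425 and 23018 on the SMA arrays and 18538, 20301 and 24720 on the transplanted arrays.

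Stard4, which carries cholesterol between membranes, read 73.4, 51.3 and 81.5 on the SMA arrays and 107.5, 105.2 and 127.9 on the transplanted arrays, with wild type at 111.8 to 154 (0.63, SE 0.19). Fdps, farnesyl diphosphate synthase, read 182.3, 175.1 and 161.3 against 241.1, 236.8 and 273.6, with wild type at 252.9 to 340.1 (0.50, SE 0.17). For Fdps the gap between the groups was wider than the range of the SMA arrays. Lss, which closes the sterol rings, read 526.5, 419.1 and 470.6 against 742.5, 584.4 and 943.1 (0.64, SE 0.26). Tm7sf2, a sterol reductase, read 576.2, 335.6 and 313.2 against 579.2, 610 and 623.4 (0.60, SE 0.24), so its separation rested on 3 signal units between SMA 1 and transplanted 1. The other members without overlap were Mvd (0.74, SE 0.27), Ebp (0.46, SE 0.23) and Nsdhl (0.34, SE 0.17), all enzymes of the pathway. Their separations were as narrow, with the highest SMA and lowest transplanted arrays at 241.3 and 242 for Mvd, 172.2 and 175 for Ebp and 582.3 and 586.3 for Nsdhl, and the other probe set of Mvd overlapped (0.52). Srebf1, which encodes SREBP1, was the member below every SMA array (-0.25, SE 0.17). With the mean of the skeletal muscle list as a covariate the median was 0.15.

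**Figure D3:**
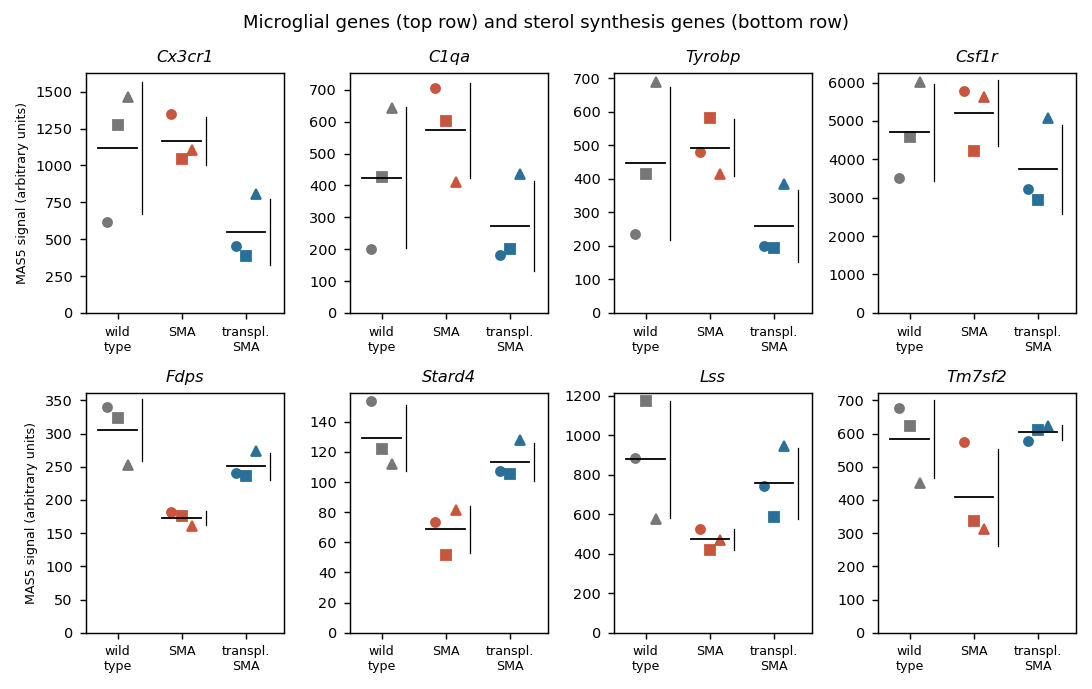
MAS5 signal in arbitrary units (y axis) of 4 microglial genes and 4 sterol synthesis genes on each array by group (x axis); circles, squares and triangles are samples 1, 2 and 3, horizontal lines are group means and vertical lines span 1 SD to either side (n = 3). For the microglial genes transplanted 3 is the highest transplanted array and close to the SMA arrays, and for the sterol genes all 3 transplanted arrays lie above the SMA arrays.

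Among stress genes the clearest difference was in Hspb1, the small heat shock protein that binds unfolded proteins and neurofilaments and is raised in injured motor neurons. Its brightest probe set read 368.5, 288.5 and 249.2 on the SMA arrays and 171.9, 104.9 and 147.3 on the transplanted arrays (-1.02, SE 0.22). The transplanted arrays lay between the SMA arrays and the wild type arrays, which read 65.1, 59.4 and 88.6. The other probe set read 177.5, 168.2 and 172 against 93.3, 44.5 and 106.2 (-1.02), with wild type at 13.7 to 21.9. Of 35 tested heat shock and chaperone genes 13 were positive and 22 negative with a median of -0.09, and the other member without overlap was the cochaperone Dnajb2 (0.33). The Hspb1 promoter is shown because both Hspb1 probe sets differed in the same direction. It is chr5:135887669-135887918 on the plus strand of GRCm38.p6 (RefSeq, the 250 bases before the start). Matches to GAANNTTC, the paired unit of the heat shock element, are in capitals.
Hspb1: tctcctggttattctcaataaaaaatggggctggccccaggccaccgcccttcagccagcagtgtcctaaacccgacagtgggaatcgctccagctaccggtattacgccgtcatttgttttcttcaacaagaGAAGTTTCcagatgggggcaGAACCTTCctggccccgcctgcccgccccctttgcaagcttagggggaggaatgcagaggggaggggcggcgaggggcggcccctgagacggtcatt
GAANNTTC matched 2 times, at 117 to 110 and at 97 to 90 bases before the start, and 6.69% of the windows held it. The same window held 1 TGACG, on the opposite strand and printed in lower case.

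Relative to the SMA mean, the list of glucocorticoid-induced genes stood at -0.91, -0.93 and -0.82 on the wild type arrays and at -0.15, -0.32 and -0.09 on the transplanted arrays. Of 20 tested members 6 were positive and 14 negative after transplantation, with a median of -0.30, 2 below every SMA array and 1, Dusp1, above. Sult1a1, a sulfotransferase, read 155.3, 126.4 and 171.7 on the SMA arrays and 111.7, 103.9 and 100.1 on the transplanted arrays, with wild type at 20.8 to 34.3 (-0.45, SE 0.18). Ddit4, an inhibitor of the growth kinase mTORC1, read 367.4, 176.8 and 306.9 against 145.4, 137.3 and 190.2 (-0.74, SE 0.25), with wild type at 124.5 to 154.3 and an overlap between SMA 2 and transplanted 3. Mt2, a metal-binding metallothionein, differed by -0.47 (SE 0.22) with overlapping groups. Without SMA 1 the median of the list was -0.15.

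The list of p53 targets and apoptosis genes had 8 positive and 19 negative of 27 tested and a median of -0.15. At an unadjusted p under 0.05, 2 were higher and 2 lower, and 2 lay above and 4 below every SMA array. Trp53inp1, which promotes p53 activity, read 259.7, 291.3 and 229.4 on the SMA arrays and 194.9, 140.7 and 200.7 on the transplanted arrays (-0.51, SE 0.21). Mdm2, the ligase that degrades p53, was at 72.2, 72.5 and 64.7 against 54.6, 55.6 and 51.1 (-0.30, SE 0.15). In contrast Phlda3, an inhibitor of AKT, read 114.8, 93.3 and 114.7 against 182.7, 148.1 and 171.4 (0.57, SE 0.18), and the cell survival gene Bcl2l1 differed by 0.25 (SE 0.16). Cdkn1a, the cell cycle inhibitor p21, did not separate the SMA groups, at 656.8, 643.6 and 541.3 against 879.2, 402.5 and 462.7 (-0.15, SE 0.32), and lay above the wild type range of 112.6 to 243.2 on all 6 SMA-genotype arrays. Of the oxidative stress list, Srxn1, which repairs peroxiredoxins, read 42, 49.2 and 38.6 against 95.9, 64.4 and 69.9 (0.63, SE 0.19). The 30 tested genes of that list had a median of 0.06, and those of endoplasmic reticulum stress one of 0.02, with the mannosidase-like Edem1 lower (-0.52, SE 0.18, with a second probe set at -0.17).

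Genes of RNA processing are of interest here because SMN acts in the assembly of spliceosomal particles. Of 51 tested SR, hnRNP and Rbm proteins, 18 were positive and 33 negative, 6 lay below every SMA array and 1 above, and the median was -0.07. Rbm5, a splicing regulator of apoptosis genes, read 391.6, 427.7 and 438.9 on the SMA arrays and 284, 293.8 and 294.2 on the transplanted arrays (-0.50, SE 0.14), and the wild type arrays read 378.2 to 384.9. The transplanted arrays were nearly equal and lay below all 6 vehicle arrays. Other probe sets of Rbm5 differed by -1.30, -0.45 and -0.04. Rbm39, a coactivator and splicing factor, read 98.6, 148.8 and 125.2 against 60.4, 90 and 77 (-0.61, SE 0.20), and all 4 of its probe sets were negative. Ewsr1, an RNA-binding protein of the FET family, read 223, 348.5 and 431.3 against 188.9, 211.3 and 210.7 (-0.63, SE 0.25), with a second probe set at -0.09, and Srsf11 differed by -0.41 (SE 0.18).

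Probe sets of a gene did not always have the same sign. The brighter probe set of Rbmx was higher (0.43, SE 0.17) and the dimmer one lower (-0.74, SE 0.18), each without overlap. For Tardbp, which encodes TDP-43, 1 of 4 probe sets was lower, at 83.1, 81.1 and 85.4 on the SMA arrays against 33.4, 57.3 and 23.1 on the transplanted arrays (-0.93, SE 0.24), and the other 3 differed by -0.04 to 0.05. Of 94 genes named by rule, 33 had several tested probe sets, and these shared 1 sign for 22 and were mixed for 11. For 2 splicing-related genes picked after their values were seen, Arglu1 (-0.63 and -0.51) and Nktr (-0.67 and -0.33), both probe sets lay below every SMA array. Srrm1, Ddx17, Tia1 and Hnrnpa2b1, picked in the same way, had only negative probe sets, but of unequal size. Srrm1 was at -0.57 and -0.07, Ddx17 at -0.57 and -0.43, and Tia1 at -0.57, -0.29 and -0.04. Hnrnpa2b1 was at -0.03 on its brightest probe set and -1.10 to -0.45 on the other 3. In each of these genes the groups overlapped on at least 1 probe set.

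The SMN complex and spliceosome list had 10 positive and 20 negative of 30 tested, a median of -0.07, 5 members below every SMA array and none above. Snrnp70, the U1 particle protein, read 258.6, 185.5 and 179.8 on the SMA arrays and 107.4, 164.8 and 122.8 on the transplanted arrays (-0.60, SE 0.22), with wild type at 112.6 to 164. Snrpb2, of the U2 particle, differed by -0.44 (SE 0.17) and -0.23 on its probe sets, Sf3b1, its branch point binding partner, by -0.41 (SE 0.16) on its brightest and -0.41 on its other probe set, and U2af1 by -0.23 (SE 0.16). Ddx20, the SMN partner Gemin3, read 51.3, 67.1 and 53 against 43.2, 50.2 and 7.9 (-0.68, SE 0.33), a difference drawn mostly by transplanted 3.

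**Figure D4:**
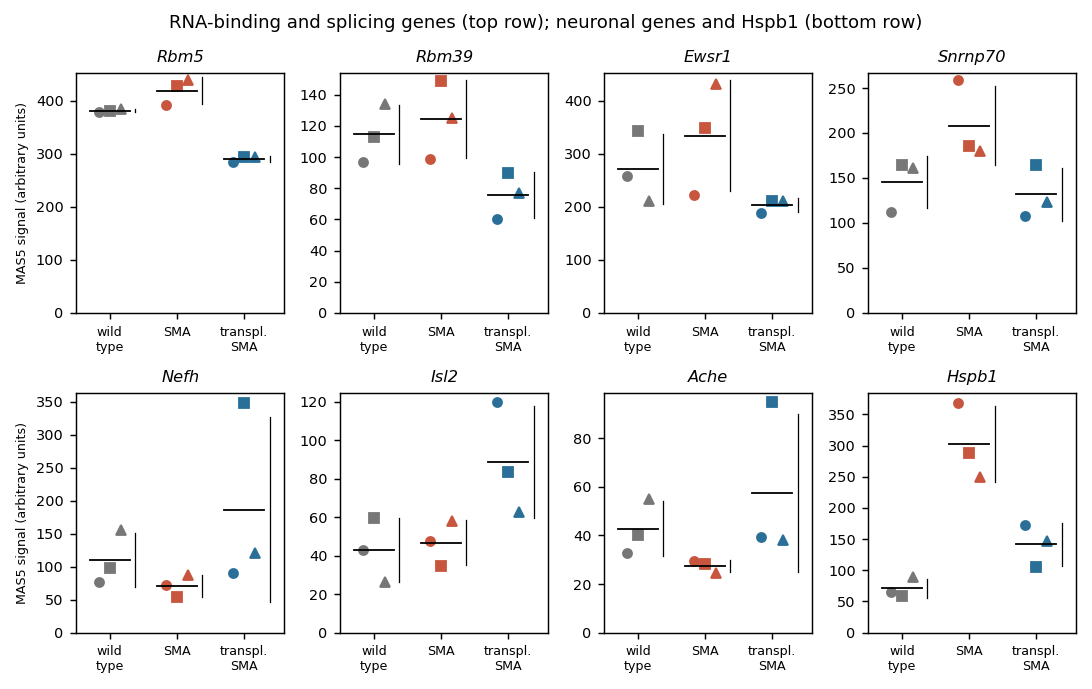
MAS5 signal in arbitrary units (y axis) of 4 RNA-binding or splicing genes, 3 neuronal genes and Hspb1 on each array by group (x axis); circles, squares and triangles are samples 1, 2 and 3, horizontal lines are group means and vertical lines span 1 SD to either side (n = 3). Rbm5 shows narrow groups with transplanted arrays at 284 to 294.2, Nefh and Ache each have a single high transplanted array, sample 2, and Hspb1 in transplanted SMA lies between SMA and wild type.

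Neuronal genes varied widely between arrays of one group. Of 9 tested motor neuron and cholinergic genes 6 were positive, 2 lay above every SMA array and none below, and the median was 0.19. Isl2, a homeodomain factor of motor neurons, read 47.8, 34.7 and 58 on the SMA arrays and 119.8, 83.7 and 62.6 on the transplanted arrays (0.72, SE 0.27). Ache, acetylcholinesterase, read 29.5, 28.4 and 24.5 against 39.2, 95.1 and 38.2 (0.67, SE 0.27). Without transplanted 1 the median of the list was -0.03. Nefh, the heavy neurofilament subunit of large axons, read 73, 54.1 and 87.1 against 91.2, 348.2 and 120.4 (1.02, SE 0.40). Nefm differed by 0.85 (SE 0.42) and Nefl by 0.45 (SE 0.28), both with overlap. Transplanted 2 was high for all 3 subunits, and the fourth tested gene of the list, the intermediate filament Ina, had the opposite sign (-0.44, SE 0.44). The median of these 4 genes, 0.65, was 0.19 without transplanted 2.

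Of 27 tested microtubule and axon growth genes 9 were positive and 18 negative, with a median of -0.10. Mapt, the axonal microtubule protein tau, read 340.4, 291 and 284.2 on the SMA arrays and 192.6, 214.6 and 156.7 on the transplanted arrays, with wild type at 234.2 to 244.9 (-0.66, SE 0.17). The other Mapt probe sets differed by -0.49 and 0.01. Dpysl4, a collapsin response protein of growing axons, read 125.9, 116.6 and 97.2 against 82.5, 81.1 and 69.5 (-0.46, SE 0.17), while its other probe set was positive at 0.27. Stmn2 (-0.36, SE 0.49) and Gap43 (-0.13, SE 0.44), growth-associated proteins of regenerating axons, did not separate the groups, and Stmn2 alone spread from 196.7 to 818.9 over the SMA arrays. Of 24 axonal transport motors 18 were positive with a median of 0.06, and Kif3b (-0.42, SE 0.18, with a second probe set at -0.04) and Kif2a (-0.37) lay below every SMA array. Synaptic vesicle genes (median 0.09, 23 tested) and ion channels (0.13, 17 tested) had no member without overlap. Of the transmitter receptors (0.11, 10 tested), 2 lay above every SMA array, or 20% against 4.52% of all genes, and none below. The synaptic vesicle median was -0.09 without transplanted 2 and the ion channel median -0.03 without SMA 2. The kainate receptor subunit Grik5 read 31.5, 34 and 27.8 on the SMA arrays and 56.5, 49.8 and 46 on the transplanted arrays (0.50, SE 0.18).

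The probe set with the smallest unadjusted p was Gpr37l1, an astrocytic receptor for prosaposin. It read 665, 366.4 and 565.8 on the SMA arrays and 1239.9, 1046.6 and 1190.9 on the transplanted arrays (1.14, SE 0.24, unadjusted p 0.000667 and adjusted p 0.933 by limma). The wild type arrays, at 1375.7, 1138.8 and 822, overlapped the transplanted arrays and lay above the SMA arrays. Other astrocyte genes did not follow it. Of 30 tested 18 were positive and 12 negative, and the median was 0.12, which was -0.06 without transplanted 3, -0.02 without SMA 2 and -0.15 with the muscle list as a covariate. Ttyh1, a membrane protein of astrocytes, differed by -0.54 (SE 0.20) on 1 of 4 probe sets, with the others at -0.27 to 0.11. The glutamate transporter Slc1a2 differed by 0.87 (SE 0.32) with overlap, and Gfap, the filament of reactive astrocytes, spread from 399.6 to 2206.1 within the SMA group (0.38, SE 0.59).

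Oligodendrocyte and myelin genes were mostly positive, with 26 of 30 above 0, 2 above every SMA array and a median of 0.24. Pllp, a myelin membrane protein, read 304.7, 141.5 and 296.1 on the SMA arrays and 457.9, 460.6 and 479.5 on the transplanted arrays (0.94, SE 0.33). Gjb1, the gap junction protein connexin 32, read 20.4, 32.8 and 18.2 against 47, 40.1 and 63 (0.73, SE 0.28), with wild type at 67.7 to 169.5. The list stood at -0.41, -0.08 and 0.49 on the SMA arrays and at 0.14, 0.11 and 0.67 on the transplanted arrays, so sample 3 was the highest of each group. The median was 0.09 without transplanted 3 and -0.08 with the skeletal muscle list as a covariate.

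Meningeal, vascular, laminin and Schwann cell genes were highest on transplanted 1. The median was 0.40 for 27 meningeal and fibroblast genes, 0.46 for 21 endothelial and mural genes, 0.33 for 17 laminin and basement membrane genes and 0.58 for 9 Schwann cell genes. Without transplanted 1 these medians were -0.07, 0.07, -0.06 and 0.19. Col1a2, the second chain of type I collagen, showed this pattern at 695.7, 1129.8 and 1190.4 on the SMA arrays and 3107.4, 837 and 818.8 on the transplanted arrays. Lama5, the laminin chain of mature vascular and synaptic basement membranes, did not depend on that array alone. It read 9.5, 17.6 and 46.3 against 106.7, 59.8 and 80.9 (1.36, SE 0.31), with wild type at 31.7 to 46. Eng, an endothelial coreceptor, read 45.1, 51.8 and 64.8 against 146.1, 80.1 and 68.4 (0.66, SE 0.25). Ccdc80, a secreted matrix protein, lay in the opposite direction at 348.7, 494.8 and 486.7 against 239.2, 230.8 and 258 (-0.81, SE 0.20).

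Growth factor and morphogen lists differed in the share of members without overlap, which was 9.28% over all genes tested. It was 12.5% for neurotrophic factors and receptors and 7.69% for the insulin-like growth factor list. For TGF beta and BMP genes it was 23.8%, and for Notch and Wnt genes 3.33%. Of 24 tested neurotrophic factors and receptors 19 were positive, with a median of 0.20. Those above every SMA array were the neurotrophin sorting receptor Sort1 (219, 188.4 and 206.9 against 282.3, 229.4 and 318.3, 0.40, SE 0.18, with a second probe set at 0.10), the GDNF family ligand Nrtn (0.33, SE 0.18) and the EGF receptor ligand Tgfa (0.27, SE 0.15). The insulin-like growth factor list had a median of -0.11 over 13 genes, with the binding protein Igfbp4 above every SMA array (0.51), and the sign turned without SMA 1 (0.06), without SMA 3 (0.11) and with the muscle list as a covariate (0.25). Of 21 TGF beta and BMP genes 7 were positive and 14 negative, with a median of -0.18. Bmpr2, the type II BMP receptor, read 54.6, 77.3 and 85.3 on the SMA arrays and 39.5, 13 and 31.9 on the transplanted arrays, with wild type at 94.1 to 158.6 (-1.04, SE 0.27). Id4, a BMP target that restrains differentiation, read 757.7, 743.3 and 665.1 against 278.7, 408.4 and 538 (-0.84, SE 0.26), while its other probe sets differed by -0.62 and 0.04. In the same list the ligand Bmp4 (0.33) and the transducer Smad2 (0.35) lay above every SMA array and the receptor Bmpr1a (-0.24) below. Notch and Wnt genes were evenly split at 15 positive and 15 negative, with the Wnt transducer Dvl1 lower (-0.42, SE 0.16, with a second probe set at -0.14).

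Differences in housekeeping groups were small. The median was 0.07 for 62 oxidative phosphorylation genes, of which 45 were positive, and 0.20 for 17 glycolysis genes, of which 14 were positive. It was -0.11 for 42 cytosolic ribosomal protein genes, with 33 negative, and 0.04 for 39 proteasome and ubiquitin genes. Interferon response and MHC class I genes, which are not a housekeeping group, had a larger median of 0.31, or 0.10 without transplanted 1, and 10 of 12 were positive. For Psmb7, a proteasome subunit, the groups did not overlap, at 796.9, 552.5 and 642 on the SMA arrays and 842.7, 888.7 and 1205 on the transplanted arrays (0.55, SE 0.19).

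A few genes of no list were named by the rule because their groups did not overlap and their unadjusted p was small. Tff3, a secreted trefoil peptide, read 5.3, 34.3 and 6.1 on the SMA arrays and 54.8, 63 and 37.9 on the transplanted arrays, with wild type at 37.8 to 54.4 (1.22, SE 0.31). Mkks, a chaperonin-like protein of the ciliary base, read 73.2, 65.8 and 79.5 against 141.1, 134.5 and 121.7 (0.74, SE 0.18). Also higher were the peptidase Pgpep1 (0.79, SE 0.19), Allc (0.69, SE 0.19) and 1 of 3 probe sets of the mitochondrial carrier homologue Mtch2 (0.58, SE 0.16), whose brightest probe set differed by 0.02 and the other by 0.25, both with overlap. Capn6, a calpain-like protein that stabilises microtubules, was lower at 105.4, 78.6 and 51.5 against 39.8, 31.2 and 23.8 (-0.96, SE 0.25), as was Fam76b (-0.62, SE 0.16). For Tff3 and Mkks the wild type arrays were above the SMA arrays, and for Capn6 they were below them.

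Genes of neural progenitors and of dividing cells, which are also known from neural stem cells, were not separated between groups. Of 18 tested neural progenitor genes 8 were positive and 10 negative, with a median of -0.05, and of 25 cell cycle genes 13 were positive and 12 negative, with a median of 0.01. The cell cycle median was 0.32 without SMA 2 and -0.31 without SMA 3, and the list mean was 0.62 on SMA 2 and -0.60 on SMA 3. In neither list did any member lie above or below every SMA array. Nes, the progenitor filament nestin, read 48, 66.3 and 74.1 on the SMA arrays and 216.2, 99.4 and 57.5 on the transplanted arrays (0.68, SE 0.37), with the high value on transplanted 1. Sox2, a stem cell transcription factor, read 216.7, 418.3 and 302.4 against 177.9, 283.3 and 246.1 (-0.36, SE 0.26), and the proliferation marker Mki67 read 136.6, 391.7 and 65.4 against 164.3, 103.9 and 127.4 (-0.24, SE 0.46).

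The largest differences of the tested probe sets were in skeletal muscle genes and came from the SMA group. Of 37 muscle genes with a probe set 11 were tested. The brightness filter used the mean over all 9 arrays, so a gene high on SMA 1 and 2 could pass through those arrays alone. Of the 11 genes 8 were negative, and the median was -0.82. This count and median are therefore a description and give no support for a difference. Acta1, skeletal actin, read 1288.7 and 1413.7 on SMA 1 and SMA 2, 1.5 on SMA 3 and 8.4 to 8.8 on the transplanted arrays (-3.70, SE 1.29). Mylpf, a fast-twitch myosin light chain, read 257.1, 374.5 and 23.6 on the SMA arrays and 11.7, 12.2 and 17.6 on the transplanted arrays (-2.44, SE 0.66), and Car3, muscle carbonic anhydrase, read 553.4, 371.6 and 72.8 against 27.8, 38.3 and 60.1 (-2.25, SE 0.73). SMA 3 thus read like the transplanted arrays for Acta1 and close to them for the other genes. Without SMA 3, 4 probe sets passed the test at an adjusted p under 0.05 in limma, and 3 of these were Acta1, Mylpf and Ckm. That fit keeps only the SMA arrays with high muscle signal, so the passes of these 3 genes give no support for a difference. The fourth was a probe set of Zdhhc14, a palmitoyltransferase, at 235.8, 212.8 and 783.3 on the SMA arrays and 848.5, 881.4 and 656.5 on the transplanted arrays, and the other 5 Zdhhc14 probe sets differed by -0.43 to 0.40.

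**Figure D5:**
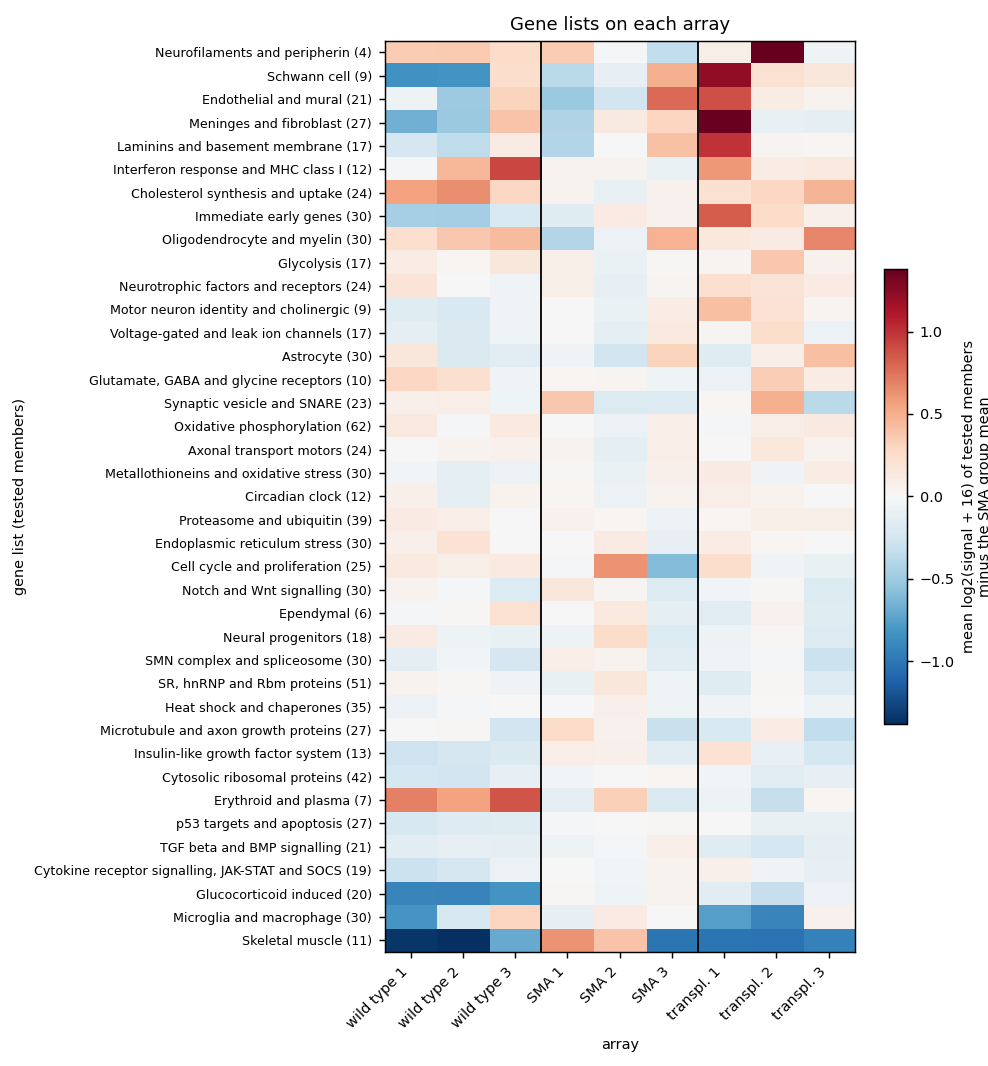
Colour gives the mean log2(signal + 16) of a list's tested members on each of the 9 arrays (columns) minus the mean of the 3 SMA arrays, for gene lists (rows, with the number of tested members) ordered by their median difference. The meningeal row is high on transplanted 1 (1.37), the neurofilament row on transplanted 2 (1.38), the microglial row is low on transplanted 1 and 2 but not 3, and the cholesterol row is above 0 on all 3 transplanted arrays.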

How the data were processed

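RNA of laser-cut lumbar motor neurons was hybridised to 9 Affymetrix arrays, 3 per group. The deposited intensity values are MAS5 signals, per the submitters' processing notes. No MAS5 version or detection filter is given in the sources used here. With 2% trimmed at either end, every array had a mean of 100, and the authors' scaling was left as deposited. Of 22690 probe sets, 64 controls were left out; 20380 named 1 gene in the platform annotation, 691 several and 1555 none. After log2(signal + 16), the brighter 50% by mean over all arrays were fitted in R 4.3.3 by limma 3.58.1 (eBayes with a trend; 6 residual degrees of freedom, 9 arrays in 1 model), two-sided, with Benjamini-Hochberg adjustment over 11313 probe sets. The code was tested on simulated data.

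Members and lists were chosen with earlier results of these data known. A gene entered a list by its brightest probe set naming it alone. Lists are described by counts and medians, with no test of the list. Named genes were those whose groups did not overlap with the smallest p (12 per direction) or the largest difference (8). Up to 3 per list at an unadjusted p under 0.05 and a fixed set were added. Other members without overlap are named for some lists only, so the named members of a list are not always all of them. Promoters of 5 genes, all matched by symbol, were searched for motifs. The number of arrays limits the precision. Alternatives were other scalings, pseudocounts, filters and priors, array weights, covariates, blocking by sample number and leaving out arrays.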

Additional observations from a re-analysis of the deposited data

Results flagged for a closer look

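Atf3, a stress-induced transcription factor of injured neurons, lay in the dimmer part of the array and was in no test. It read 14.9, 23.2 and 16.6 on the SMA arrays, 2.1, 4 and 27.2 on the wild type arrays and 95.7, 66.8 and 62.8 on the transplanted arrays. It stands out because its lowest transplanted value, 62.8, was more than 2 times the highest of the 6 vehicle arrays, 27.2, and above a signal of 50. Of 9956 dim probe sets naming a gene, it was the 1 that met both conditions, which were chosen for this screen. The screen used these same values, and Atf3 was among the genes picked after their values were seen. The count therefore describes the selection and gives no support for a difference. The groups were not tested for this gene.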

How the results depend on the processing

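The count of probe sets at an adjusted p under 0.05 was 0, and leaving out 1 array gave 0 to 4. It was 6 without the 3 arrays numbered 3 (Ckm, Acta1, Zdhhc14, Mylpf, Car3 and Mbp) and 3 with Xist as a covariate (Ckm, Acta1 and Mylpf). The muscle genes among these could pass the brightness filter through SMA 1 and 2 alone, so their passes give no support for a difference. By other call rules the count was 540 (unadjusted p under 0.05) and 1031 (groups that do not overlap). The count at an unadjusted p under 0.05 ran from 336 without SMA 2 to 1062 without SMA 3. Same-numbered SMA and transplanted arrays deviated together with correlations of 0.12, 0.02 and 0.27. SMA 1 correlated best with transplanted 2 (0.21), while SMA 3 correlated best with transplanted 3. Hybridisation controls were highest on array 3 of each group, at 592.8 in wild type, 700.3 in SMA and 623.1 in transplanted SMA. Whether arrays of the same number shared a processing step was not tested. With the number as a replicate block the count was 0, with 780 at an unadjusted p under 0.05.

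Over 25 settings and 134 probe sets of named genes, 3231 of 3256 values kept their sign and side of the threshold, 10 passed it and 15 changed sign. Over the fits that leave out 1 array the log2 difference ran from -0.95 to 0.033 for Stmn2, from -0.62 to 0.22 for Gap43, from -0.49 to 0.061 for Cdkn1a, from -0.027 to 1.18 for Gfap, from -0.31 to 1.60 for Xist and from -0.77 to 0.39 for Mki67. With the muscle list as a covariate it was 0.44 for Stmn2, 0.45 for Gap43, 0.20 for Cdkn1a, -0.63 for Gfap, 0.41 for Ckm and 0.66 for Mki67. The cause was not tested. List medians ranged from 0.15 to 0.56 for immediate early genes, from -1.02 to -0.42 for microglia and from 0.15 to 0.38 for cholesterol genes. Genes near a signal of 16 or below have compressed differences, and the meningeal covariate was chosen after seeing the data.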
